A study of Mus musculus with 130 samples.

Results

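Trem2, Cd68, Cd9, Cd63, Spp1, Mmp12, Itgax, Lgals3 and Fabp5 are genes that macrophages raise when they engulf lipid and debris, and they were followed here through livers of mice given different amounts of dietary iron. The 9 genes were taken as a named list and matched by symbol, giving 9 of 35274 gene rows where diets were compared and 9 of 35711 where strains were. No measured value entered the choice, although results of these data were known when it was made. All 9 passed the filter on low counts in both tables.

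Macrophages that take up dying cells, lipid or heme display lipid-sensing receptors, enlarge their lysosomes and secrete proteins that act on the surrounding matrix. TREM2 is a surface receptor for lipids that signals through the adaptor TYROBP and the kinase SYK. In the liver this set of genes is best known from macrophages that gather around fatty hepatocytes and scars, while Kupffer cells, the resident macrophages, also recycle iron from red cells. Several of the genes are not restricted to phagocytes: bile duct cells make osteopontin, the product of Spp1, and hepatocytes can make CD9, CD63 and FABP5.

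RNA came from the livers of 130 mice, all labelled male, and the labels state no age. In the diet study, 15 C57BL/6J mice formed 5 groups of 3: chow, 50 ppm iron (labelled sufficient), 500 ppm iron (labelled elevated), 2% carbonyl iron (20000 ppm), and 2% carbonyl iron with cellulose named as the source of fibre. The labels give neither the time on diet in this study nor the fibre of the other diets. In the panel, 114 strains ate chow for 4 weeks and then 2% carbonyl iron for 6 weeks, with 1 mouse per strain except for 129X1/SvJ, which had 2. Recombinant inbred families supplied 56 (BXD), 20 (AXB/BXA), 4 (BXH) and 3 (CXB) of these strains, and 31 were other inbred strains, with no mouse on another diet, so a strain difference there is not a difference in response to iron.

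Library totals ran from 10420708 to 20357169 counts for the diets and from 9407880 to 20572879 for the panel. Hepatocyte markers were detected in every library, as were all 12 Kupffer cell markers, which matches the liver label. Levels below are counts per 1000000 (CPM) after TMM scaling, from the edgeR fit, and a gene is called when its adjusted p is under 0.05 over all genes tested. Because the tissue is bulk liver, more cells of a type and more RNA per cell cannot be told apart for any gene below. In the panel library labelled BXD65/RwwJ, the summed level of 4 Y-linked genes was 3.94 CPM, against 118 to 328 CPM in the other 114 libraries, which goes against its label as male. Leaving it out changed no count of members called between families and left 21 in place of 22 of the called relations given below.

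The genes lie on 9 chromosomes of GRCm38, and coordinates are those of GENCODE M21, counted from 1. Trem2 (ENSMUSG00000023992) spans chromosome 17 from 48346401 to 48354147 on the plus strand, Cd68 (ENSMUSG00000018774) chromosome 11 from 69664213 to 69666153 on the minus strand, and Spp1 (ENSMUSG00000029304) chromosome 5 from 104435118 to 104441050 on the plus strand. These 3 genes behaved differently below: Cd68 rose with 2% iron, Spp1 did not, and Trem2 depended on the scale. Their RefSeq promoter windows, the 250 bases before the start on GRCm38.p6, are shown as a description. Capitals mark exact matches, on either strand, to GAGGAA (the core bound by PU.1, the factor that specifies macrophages) or TGANTCA (the AP-1 site), which do not overlap one another here.
Cd68, chr11:69666171-69666420, minus strand: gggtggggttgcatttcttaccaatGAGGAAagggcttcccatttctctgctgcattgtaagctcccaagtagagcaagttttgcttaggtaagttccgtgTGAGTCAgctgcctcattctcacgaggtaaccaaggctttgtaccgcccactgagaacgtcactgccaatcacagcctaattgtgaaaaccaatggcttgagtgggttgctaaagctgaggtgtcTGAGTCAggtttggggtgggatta
Trem2, chr17:48346151-48346400, plus strand: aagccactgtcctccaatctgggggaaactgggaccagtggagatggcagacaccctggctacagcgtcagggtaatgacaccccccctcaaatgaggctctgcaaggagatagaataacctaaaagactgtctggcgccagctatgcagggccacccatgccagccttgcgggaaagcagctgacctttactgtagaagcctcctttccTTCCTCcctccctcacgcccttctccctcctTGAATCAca
Spp1, chr5:104434861-104435110, plus strand: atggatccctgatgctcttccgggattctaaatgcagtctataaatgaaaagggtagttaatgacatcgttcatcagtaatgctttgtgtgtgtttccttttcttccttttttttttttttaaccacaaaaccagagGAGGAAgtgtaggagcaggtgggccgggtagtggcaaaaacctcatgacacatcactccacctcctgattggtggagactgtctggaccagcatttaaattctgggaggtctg

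The Cd68 window held the PU.1 letters once and the AP-1 letters at 2 places, from 149 and from 24 bases before the start. The Trem2 window held each once, the PU.1 letters on the opposite strand and the AP-1 letters from 9 bases before the start. The Spp1 window shown held the PU.1 letters alone. Among 32851 RefSeq windows of the same length, 23.25% held the PU.1 letters and 6.749% the AP-1 letters. Neither TCACGTG, an E-box bound by lysosomal regulators of the TFE family (3.129% of windows), nor TGACNNNGC, the core of the antioxidant element bound by NRF2 (10.16%), occurred in these 3 windows. Windows were found for 8 of the 9 members, and Fabp5 had none. A match shows letters, not binding.

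The main question of the diet study was what 2% iron does relative to the sufficient diet. Cd68, Lgals3 and Cd9 rose on 2% iron against 50 ppm, by 3.07-fold, 3.52-fold and 1.49-fold. Itgax was 2.02-fold higher and just missed the threshold. No member fell. These 3 of 9 members called compare with 15.7% of 13560 genes called in either direction and 8.52% called higher. Of the 9 members, 8 had a log2 change above 0 (51.2% of all genes did), and in 4 of them the lowest mouse on 2% iron lay above the highest on 50 ppm (19.2% of all genes). The median log2 change of the members was 0.69, against 0.01 for all genes tested.

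**Figure D1:**
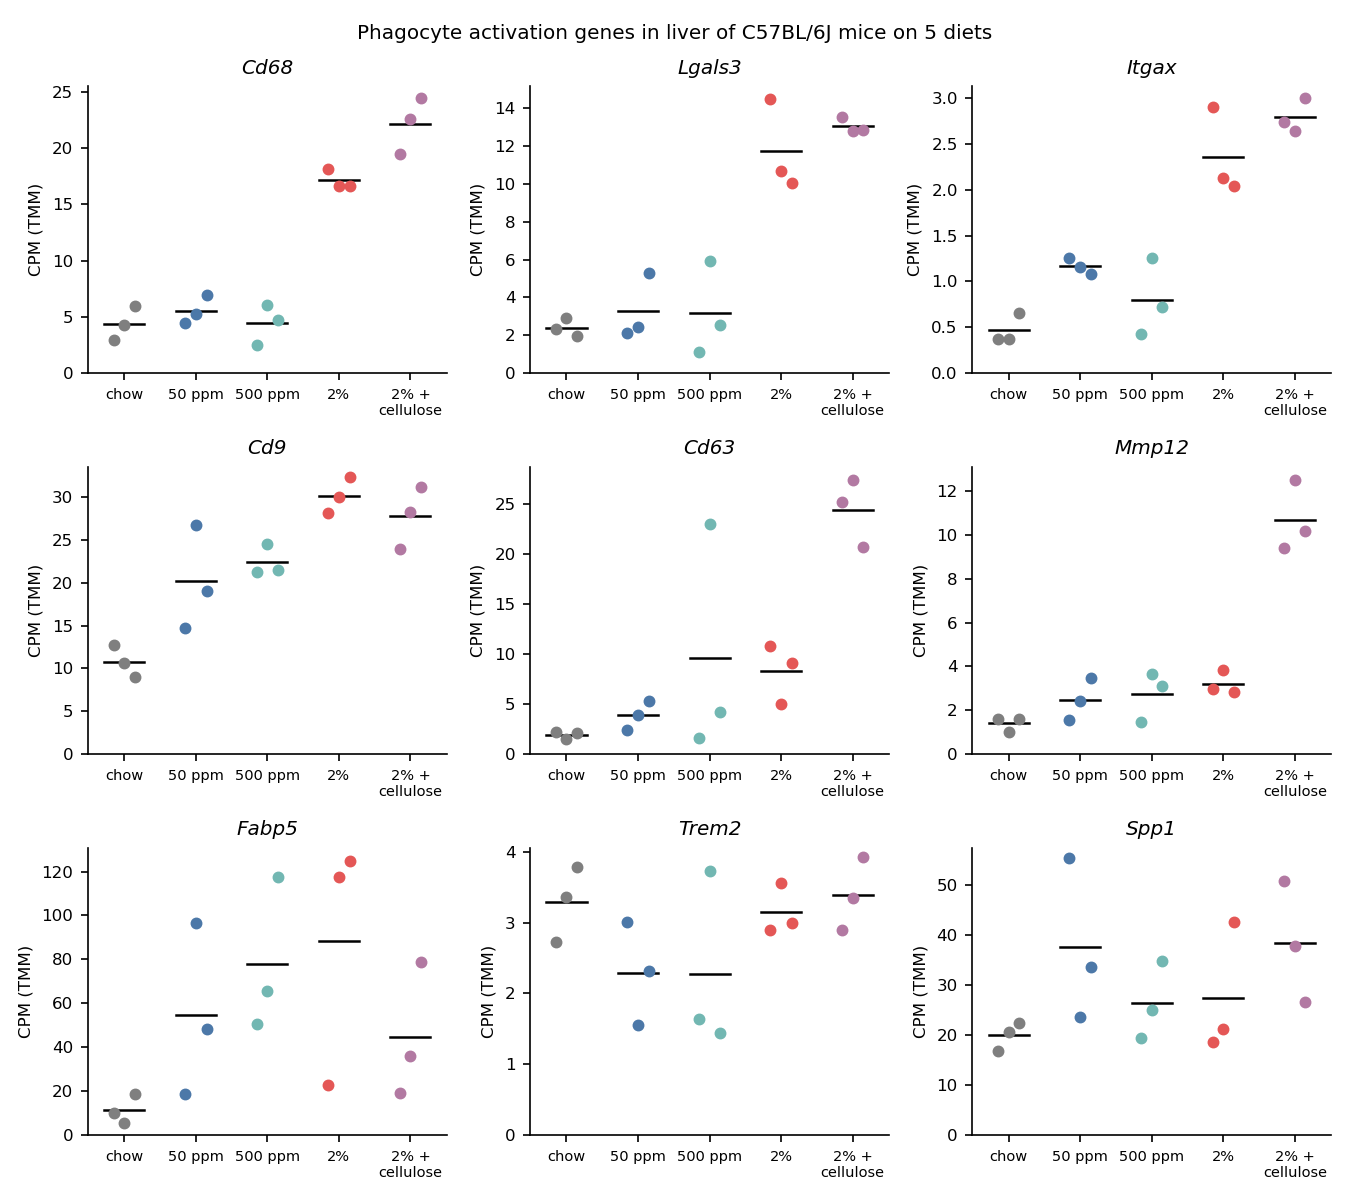
CPM of each member (vertical axes, starting at 0) in each of the 15 C57BL/6J mice, by diet (horizontal axis). Points are mice and bars are group means. Cd68, Lgals3 and Itgax were high in all 6 mice on 2% iron, whereas Mmp12 was highest in the 3 mice given cellulose, and Cd63 in those and in 1 mouse on 500 ppm.

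Cd68 encodes a heavily glycosylated protein of the macrophage lysosome and endosome membrane. The 3 mice on 2% iron had 18.1, 16.6 and 16.6 CPM of Cd68, and the 3 on 50 ppm had 4.46, 5.22 and 6.96 CPM. The groups were far apart, with means of 17.1 ± 0.875 and 5.55 ± 1.28 CPM (SD, n = 3 each). The log2 change was 1.62 (SE 0.267, edgeR adjusted p = 0.0019), and it stayed called in all 13 alternative fits (adjusted p from 1.21e-06 to 0.0135). Mice on 500 ppm had 2.50, 6.06 and 4.67 CPM and mice on chow 2.91, 4.29 and 5.96 CPM. These overlapped the 50 ppm group, so Cd68 separated the 2% diets from the other 3.

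Cd63 encodes a tetraspanin of late endosomes, lysosomes and exosomes. It was 10.8, 4.98 and 9.13 CPM on 2% iron, against 2.42, 3.87 and 5.30 CPM on 50 ppm. The lowest mouse on 2% iron lay within the range of the 50 ppm group, and the log2 change of 1.09 (SE 0.684) was not called (edgeR adjusted p = 0.308). One mouse on 500 ppm, replicate 2, had 23 CPM of Cd63, while its group mates had 1.64 and 4.17 CPM.

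That mouse, looked at after its Cd63 value was seen, was the highest of its group for 7 of the 9 members, Spp1 and Fabp5 being the exceptions. Other mice were placed in a similar way. Replicate 1 of the 500 ppm group was the lowest for 8 members, and replicate 3 of the chow group the highest for 6. The share of all genes was not counted. Replicate 2 of the 500 ppm group also had the largest library of the diet study. Its summed Kupffer cell markers came to 342 CPM, against 215 and 232 CPM in its group mates, and its summed neutrophil markers to 8.67 CPM, against 0.344 and 0.431 CPM. The part of other cells in its values was not tested.

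Lgals3 encodes galectin-3, a secreted lectin that also gathers at damaged lysosomes. Its values were 14.5, 10.7 and 10.1 CPM on 2% iron and 2.13, 2.42 and 5.30 CPM on 50 ppm. No mouse of one group reached the other, and the log2 change was 1.82 (SE 0.425, edgeR adjusted p = 0.0115). Without replicate 1 of the 50 ppm group the change was 1.59 and the call was lost (edgeR adjusted p = 0.0595).

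Itgax encodes CD11c, an integrin chain that pairs with ITGB2 on dendritic cells and activated macrophages. Levels were low: 2.90, 2.13 and 2.05 CPM on 2% iron, from 24 to 35 counts, and 1.26, 1.16 and 1.08 CPM on 50 ppm, from 12 to 13 counts. Every mouse on 2% iron was above every mouse on 50 ppm. The log2 change was 1.02 (SE 0.330, edgeR adjusted p = 0.0517). In the fit of the 2 groups alone it was called (edgeR adjusted p = 0.0392), as it was by limma on log2(TPM + 1) at an adjusted p of 0.0255. None of the 6 fits that left out 1 mouse called it (edgeR adjusted p from 0.0777 to 0.180).

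Cd9 encodes a tetraspanin that organises adhesion proteins at the cell surface. It measured 28.1, 30.05 and 32.3 CPM on 2% iron and 14.7, 26.8 and 19.1 CPM on 50 ppm. The groups did not overlap, but the 50 ppm mice were spread widely. The log2 change was 0.58 (SE 0.178, edgeR adjusted p = 0.0418). The call was lost in 5 of the 6 fits that left out 1 mouse and in the fit of the 2 groups alone (log2 change 0.58, edgeR adjusted p = 0.0758).

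Mmp12 encodes macrophage elastase, a secreted protease that cuts elastin. On 2% iron it was 2.98, 3.82 and 2.82 CPM, against 1.55, 2.42 and 3.48 CPM on 50 ppm. The ranges overlapped, and the log2 change of 0.35 (SE 0.328) was not called (edgeR adjusted p = 0.509).

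Spp1 encodes osteopontin, a secreted ligand of integrins and CD44. It was the one member with a value below 0 in this comparison. Mice on 2% iron had 18.6, 21.2 and 42.8 CPM, and mice on 50 ppm had 55.5, 23.6 and 33.6 CPM. The log2 change was -0.45 (SE 0.355, edgeR adjusted p = 0.426), and single mice differed more than 2-fold within each group. Cholangiocyte markers, for cells known to make osteopontin, summed to 10.1 to 12.4 CPM on 2% iron and 9.53 to 15.4 CPM on 50 ppm, and none of the 5 tested was called.

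Fabp5 encodes an intracellular carrier of fatty acids. Its mice did not hold together: 22.6, 118 and 125 CPM on 2% iron and 18.8, 96.6 and 48.3 CPM on 50 ppm. The log2 change of 0.69 (SE 0.679) was not called (edgeR adjusted p = 0.534). Fabp5 has 5 pseudogenes at least 90% identical over 200 bases or more, of which Gm6166 is 98.29% identical over 409 bases. Gm6166 held 191 counts over the 15 diet libraries and 6829 over the 115 panel libraries. The split of reads between them is uncertain in both studies.

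Trem2 gave different answers on the deposited scales. In CPM the 3 mice on 2% iron had 2.90, 3.56 and 2.99, the 3 on 50 ppm 3.00, 1.55 and 2.32, and the 3 on chow 2.73, 3.36 and 3.78. These groups overlapped, and the log2 changes were 0.46 against 50 ppm (SE 0.339, edgeR adjusted p = 0.395) and -0.07 against chow (SE 0.327, edgeR adjusted p = 0.908). In TPM, which divides by transcript length, Trem2 was 1.71, 2.07 and 1.82 on 2% iron, 0.831, 0.637 and 0.702 on 50 ppm, and 0.571, 0.625 and 0.789 on chow. On that scale no mouse on 2% iron overlapped either group.

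Limma on log2(TPM + 1) called Trem2 higher on 2% iron, by 0.73 against 50 ppm (adjusted p = 0.0109) and by 0.79 against chow (adjusted p = 0.00461). The ratio of unscaled CPM (counts over the library total) to TPM follows the mean transcript length behind the counts on a relative scale. For Trem2 it was 1.71 ± 0.0451 on 2% iron, 1.39 ± 0.186 with cellulose, 3.07 ± 0.572 on 50 ppm, 3.74 ± 0.610 on 500 ppm and 4.64 ± 0.108 on chow (SD, n = 3 each). Both 2% groups lay below the other 3 without overlap. The chow ratio was 2.71 times that on 2% iron, and only 0.248% of 12509 genes tested for this ratio, those averaging 1 CPM or more, differed 2-fold or more in either direction between these diets. The annotation lists 2 coding transcripts of Trem2, of 1088 and 1056 bases, and a retained-intron transcript of 4784 bases. Which transcript each read came from was not analysed here.

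**Figure D2:**
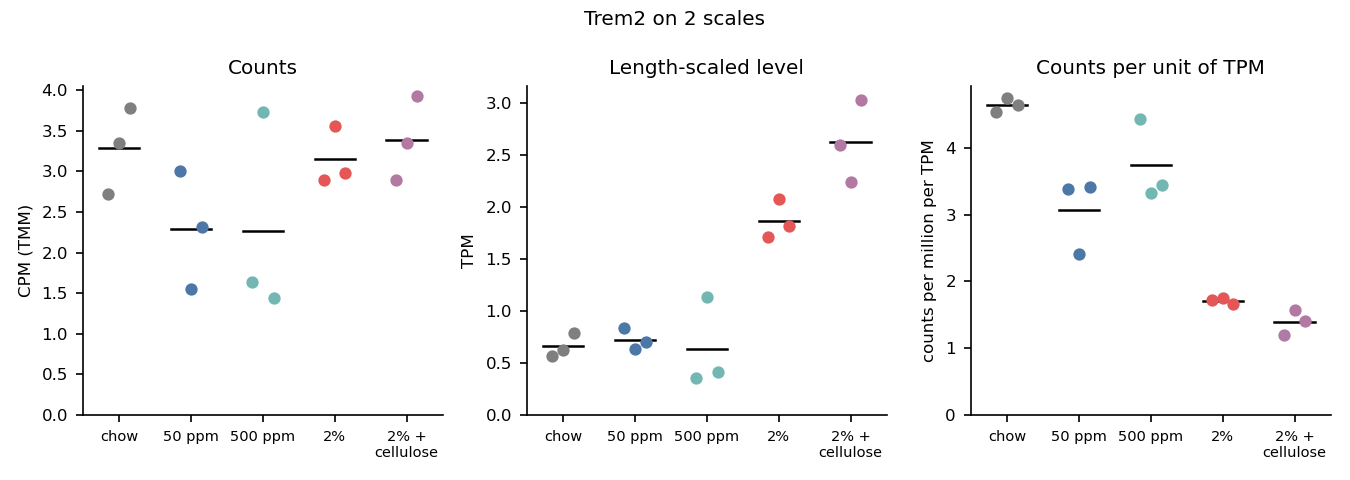
Trem2 in the 15 C57BL/6J mice by diet, as CPM (left), TPM (middle) and unscaled CPM per unit of TPM (right). Points are mice and bars are group means; the 2% groups overlap chow in CPM, lie above all other mice in TPM and lie below them in the ratio.

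Mmp12 and Itgax showed such shifts as well. The ratio for Mmp12 was 4.13 ± 0.473 on chow and 1.65 ± 0.155 with cellulose, and for Itgax it was 3.93 ± 0.142 on 50 ppm and 2.53 ± 1.16 on 2% iron (SD, n = 3 each). For Cd68 the ratio lay between 0.930 and 1.02 in all 5 group means. Per length, the members on 2% iron ranked from Fabp5 at 112.2 ± 72.3 TPM through Cd9 at 33.1 ± 0.439, Spp1 at 23.5 ± 11.5, Cd68 at 17.2 ± 1.43, Lgals3 at 13.6 ± 2.98 and Cd63 at 12.2 ± 3.66 down to Trem2 at 1.87 ± 0.186, Mmp12 at 1.32 ± 0.272 and Itgax at 1.09 ± 0.490 TPM (SD, n = 3). Neighbours in this order overlapped between mice, except that Cd63 lay clear of Trem2 and Trem2 of Mmp12.

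Of 8 genes of TREM2 signalling, the related receptor gene Treml2 among them, 7 were tested on 2% iron against 50 ppm and 6 were called, all higher, with a list median of 1.65 on the log2 scale. Card9, an adaptor downstream of SYK, was not called (log2 change 0.57, edgeR adjusted p = 0.444). Treml2 rose by 2.04 (SE 0.631, edgeR adjusted p = 0.0432) at a low level. Tyrobp, the signalling adaptor of TREM2, rose by 1.67 (SE 0.329, edgeR adjusted p = 0.00495). Plcg2, a phospholipase downstream of SYK, rose by 1.65, and Syk itself by 1.65.

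Among 18 genes of lipid and debris handling, 17 were tested and 10 were called, all higher. Ctss, a lysosomal protease of antigen-presenting cells, rose by 1.5, Msr1, a scavenger receptor, by 1.36, and Axl, a receptor for dying cells, by 1.32. Gpnmb, a lysosomal glycoprotein of lipid-laden macrophages, was 3.64 ± 2.29 CPM on 2% iron and 1.31 ± 1.52 CPM on 50 ppm (SD, n = 3 each) and was not called (log2 change 1.41, edgeR adjusted p = 0.176). Of 7 osteopontin receptors, 3 were called higher: Itgb3 by 2.04, Cd44 by 1.29 and Itga9 by 1.15. These 3 receptor genes passed the test where the ligand gene Spp1 did not.

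Of 4 genes around CD11c, the 3 integrin genes were called higher, Itgal by 1.92, Itgb2 by 1.61 and Itgam by 1.52. Icam1, an integrin ligand, was not (log2 change 0.44, edgeR adjusted p = 0.137). Among 8 other tetraspanins, Cd53 and Cd37, of white blood cells, rose by 1.39 and 1.23, while Tspan31 and Cd81 fell by 0.43 and 0.30. Of 9 genes of metalloproteinases and their inhibitors 5 were tested, and Adam17 and Adam10, which shed surface proteins, were called higher by 0.47 and 0.43. Among 6 other galectin and fatty acid binding genes, Fabp4, of macrophages and fat, rose by 1.44 and Lgals3bp by 0.87, while Fabp2, the intestinal form, fell by 1.16 and Fabp1, the liver form, fell by 1.01. Of the 4 MiT/TFE factors, which control lysosomal genes, Tfec rose by 1.55 and Tfe3 by 0.36.

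Most Kupffer cell markers rose on 2% iron. Of 12, 10 were called higher on 2% iron, and their summed level was 654 to 690 CPM there, 221 to 303 CPM on 50 ppm, 215 to 342 CPM on 500 ppm and 228 to 301 CPM on chow. All 12 were detected in every library. Monocyte markers summed to 22.2 to 24.4 CPM on 2% iron and 9.60 to 14.9 CPM on 50 ppm, with 1 of 8 called, and neutrophil markers to 3.50 to 12.1 CPM and 0.388 to 0.912 CPM, with 0 of 4 tested called. Stellate cell markers summed to 199 to 290 CPM on 2% iron and 187 to 246 CPM on 50 ppm, with 0 of 8 called. Of the other marker lists, 1 of 6 dendritic cell genes and 1 of 7 sinusoidal endothelial genes tested were called higher, 0 of 3 lymphocyte genes were called, 2 of 7 hepatocyte genes were called lower, and neither the 2 adipocyte genes nor the 1 exocrine pancreas gene tested was called. Of the erythroid genes all 4 tested were called: Slc4a1 was 17.8-fold, Hbb-bs 14.3-fold and Hba-a1, which has a near-identical copy, 12.7-fold higher, while Alas2, the heme synthesis enzyme of red cell precursors, fell by 1.51 on the log2 scale. Summed erythroid markers were 229 to 349 CPM on 2% iron, 63.1 to 101 CPM on 50 ppm and 99.5 to 126 CPM on chow. That sum includes Alas2, at 98.1 ± 8.29 CPM on chow and 21.4 ± 5.97 CPM on 2% iron (SD, n = 3 each). On chow Hba-a1 was 5.96 ± 3.38 CPM and Hbb-bs 5.87 ± 2.83 CPM (SD, n = 3 each). The part of cell numbers and of blood in the rise of Cd68, Lgals3 and Cd9 was not tested.

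At 500 ppm, 10 times the sufficient level, no member was called against 50 ppm, nor was any of the 13560 genes (0%; 3.16% had an unadjusted p under 0.05, none of them a member). DESeq2 and limma also called no member. All 9 members overlapped between these groups, while 3.3% of genes were higher and 3.95% lower without overlap. Between 2% and 500 ppm, Cd68 rose by 1.92 (SE 0.265, edgeR adjusted p = 6.94e-04), Lgals3 by 1.81 (SE 0.411, edgeR adjusted p = 0.0124) and Itgax by 1.48 (SE 0.328, edgeR adjusted p = 0.011). These are 3 of 9 members, beside 11.3% of all genes called and 6.59% called higher. Without overlap, 4 of 9 members were higher (16% of genes), Cd9 among them, which was not called (log2 change 0.42, edgeR adjusted p = 0.137).

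The mouse with high Cd63 weighed on this comparison. With all mice the log2 change of Cd63 was -0.27 (SE 0.615, edgeR adjusted p = 0.834). Without replicate 2 of the 500 ppm group it was 1.48 (edgeR adjusted p = 0.0234), that of Trem2 was 1.03 (edgeR adjusted p = 0.0278), and 5 of 9 members were called. This fit is singled out after the Cd63 value of that mouse was seen. Calls over all genes moved as well, from 1538 with all mice to between 788 and 2204 with 1 mouse left out. Itgax lost its call without replicate 1 of the 2% group (log2 change 1.3, edgeR adjusted p = 0.0514), and Lgals3 without replicate 3 of the 500 ppm group (log2 change 1.64, edgeR adjusted p = 0.0547).

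Chow served as a second reference, one that differs from the 2% diet in more than iron. Against chow, 6 of 9 members rose on 2% iron, beside 22.8% of genes called and 11.9% called higher, and 7 of 9 did not overlap (20.3% of genes, higher). Fabp5 rose by 2.93 (SE 0.751, edgeR adjusted p = 0.0123), from 9.97, 5.41 and 18.8 CPM on chow, although the lowest mouse on 2% iron, at 22.6 CPM, came close to the highest on chow. Lgals3 rose by 2.30, Itgax by 2.28, Cd68 by 1.94, Cd9 by 1.49 and Mmp12 by 1.17. Cd63 was higher by 2.10 (SE 0.745) without overlap, from 2.16, 1.49 and 2.11 CPM, and missed the threshold (edgeR adjusted p = 0.057). DESeq2 called it at an adjusted p of 0.00826.

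Markers of other cells moved in this comparison too. Stellate cell markers were called higher for 6 of 8 genes (list median 1.23 on the log2 scale), with sums of 199 to 290 CPM on 2% iron and 139 to 149 CPM on chow. Called higher as well were 10 of 12 Kupffer cell genes, 3 of 8 monocyte genes and 2 of 6 dendritic cell genes. Among 4 erythroid genes, 3 rose and Alas2 fell, while 0 of 4 neutrophil genes were called. Retnlg, Ngp and Camp, of neutrophil granules, were at 0 in every mouse on chow. The part of these cells in the members' values against chow was not tested.

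The calls of Mmp12 and Fabp5 against chow were the less stable. Mmp12 (edgeR adjusted p = 0.0269) lost its call in 4 of 6 fits that left out 1 mouse, with adjusted p-values up to 0.102. Fabp5 lost it without replicate 2 of the chow group (log2 change 2.60, edgeR adjusted p = 0.0576).

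Chow itself lay at or under 50 ppm for most of the list. No member was called between chow and 50 ppm by edgeR, nor were more than 0.391% of all genes, and 5 members had an unadjusted p under 0.05 (10.4% of genes did). Of the 9 members 8 were below 0 and 1 above it (50.8% of genes were above), and 5 (Cd9, Cd63, Spp1, Itgax and Fabp5) were lower on chow without overlap, beside 8.17% of all genes. Cd9 had the smallest adjusted p, with 12.7, 10.6 and 9.02 CPM on chow and a log2 change of -0.91 (SE 0.189, edgeR adjusted p = 0.0579). It was called by DESeq2 (log2 change -0.91, adjusted p = 0.00228). Fabp5 was lower by 2.24 on the log2 scale, Itgax by 1.27, Spp1 by 0.91 and Mmp12 by 0.82, none of them called. The mice on 50 ppm enter both this and the earlier comparison, so the 2 are not independent.

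Mmp12 separated the 2% diet labelled with cellulose from the other 2% diet, whose label names no fibre. The 3 mice given cellulose had 9.42, 12.5 and 10.2 CPM of Mmp12 (a mean of 130.3 counts), and the 3 on the other 2% diet 2.98, 3.82 and 2.82 CPM (a mean of 37.3 counts). The lowest mouse given cellulose exceeded the highest on the other 2% diet by more than 2-fold. The log2 change was 1.74 (SE 0.300, edgeR adjusted p = 0.0511), just above the threshold. It was called under 7 of 13 alternatives, DESeq2 giving an adjusted p of 1.22e-04, and the range over all of them ran to 0.183.

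Cd63 was also higher with cellulose, at 25.2, 27.4 and 20.7 CPM, without overlap. Its log2 change over the other 2% diet was 1.55 (SE 0.611, edgeR adjusted p = 0.310). Cd68, at 19.5, 22.6 and 24.4 CPM, was the third member above every mouse of the other 2% group. No member was called by edgeR in this comparison, in which 0.0811% of genes were, 2 members had an unadjusted p under 0.05 (13% of genes did), and 8.08% of genes were higher without overlap. Summed Kupffer cell markers reached 619 to 973 CPM with cellulose and summed neutrophil markers 6.70 to 71.1 CPM. None of the marker genes was called between the 2% diets, and their part in the values of Mmp12 and Cd63 was not tested.

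Against 50 ppm the cellulose mice showed 5 of 9 members called, all higher, beside 29.7% of genes called and 15.4% called higher. Cd63 rose by 2.64 (SE 0.663, edgeR adjusted p = 0.00909), Mmp12 by 2.09 (SE 0.309, edgeR adjusted p = 4.44e-04), Cd68 by 1.99, Lgals3 by 1.97 and Itgax by 1.26. The same 5 members were higher without overlap, beside 22.4% of genes, and were called in every fit that left out 1 mouse. Cd9 (log2 change 0.46, edgeR adjusted p = 0.0656) and Trem2 (log2 change 0.57, edgeR adjusted p = 0.224) were not called on counts. Limma on log2(TPM + 1) called Trem2 at 1.07 (adjusted p = 5.35e-04). Gpnmb rose by 2.59 here (SE 0.653, edgeR adjusted p = 0.00939), to 8.20 ± 2.13 CPM (SD, n = 3). Neutrophil markers were called higher for all 4 genes tested (list median 5.65 on the log2 scale), as were 10 of 12 Kupffer cell genes and 5 of 8 monocyte genes. Among 4 erythroid genes, 3 rose and 1 fell, while 0 of 8 stellate cell genes were called. The part of these cells in the members' values was not tested. The difference between the 2 comparisons with 50 ppm is the direct one between the 2% diets, given above.

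**Figure D3:**
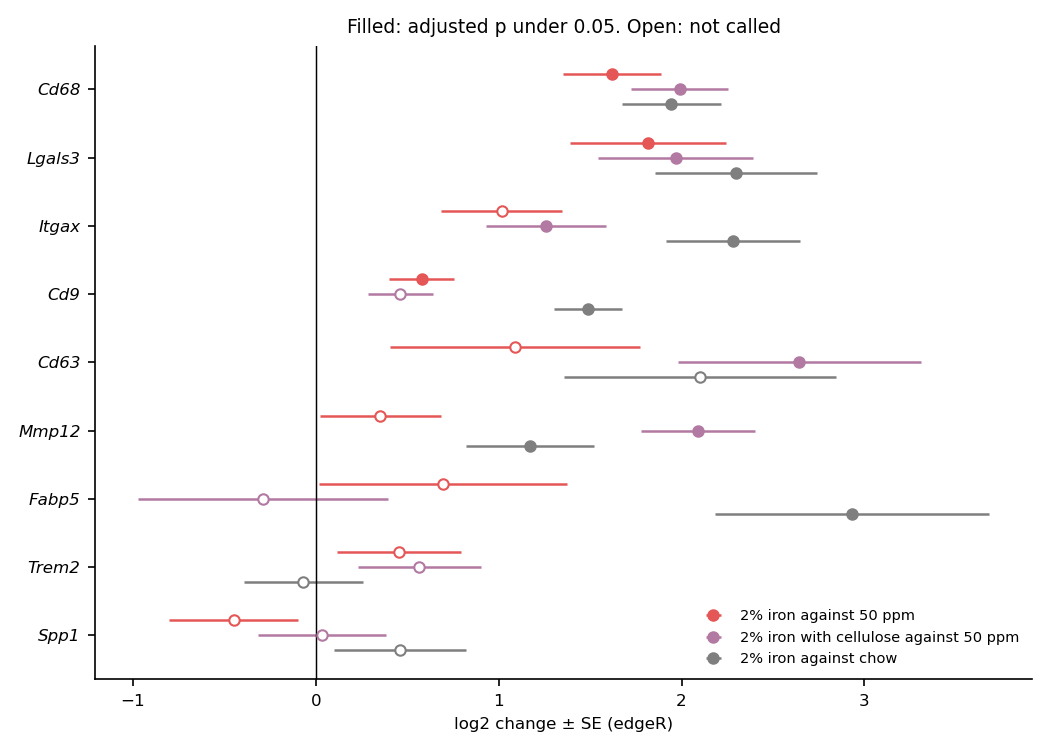
Log2 change of the 9 members (horizontal axis, bars are ± 1 SE from edgeR) in 3 comparisons that share mice. Filled points were called and open points were not: Cd68 and Lgals3 are filled in all 3, Mmp12 and Cd63 shift right with cellulose, and Trem2 and Spp1 are open throughout.

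In the panel, where every strain ate 2% iron, 8 of the 9 members had a larger SD between strains than between C57BL/6J mice on 2% iron, Fabp5 being the exception. Most genes tested did so too. The highest strain exceeded the lowest 6.19-fold for Cd68, 8.18-fold for Trem2, 9.87-fold for Cd9, 9.92-fold for Lgals3, 12.3-fold for Spp1, 29.4-fold for Fabp5, 35.8-fold for Cd63, 46-fold for Mmp12 and 46.3-fold for Itgax. The SD of log2 CPM over 114 strains, divided by that between C57BL/6J mice within the 2 groups on 2% iron, was 4.95 for Mmp12, 4.89 for Itgax, 4.39 for Cd9, 4.04 for Cd68, 3.46 for Lgals3, 2.64 for Trem2 and 2.52 for Cd63. It was 1.26 for Spp1 and 0.877 for Fabp5, and its median over 13410 genes was 1.78. Of those genes, 21.4% had a ratio below that of Spp1 and 4.62% below that of Fabp5. That spread between mice has 4 degrees of freedom. Against the spread within all 5 diet groups, with 10, the ratio was 2.72 for Cd9, 2.71 for Itgax and 2.49 for Mmp12, but 1.42 for Spp1, 1.3 for Cd68, 1.2 for Trem2, 1.18 for Cd63, 1.13 for Lgals3 and 1.02 for Fabp5. The ratios thus depend on which mice give the spread. Those of Cd9, Itgax and Mmp12 fell, and those of Cd68, Trem2, Cd63 and Lgals3 fell to between 1.13 and 1.3. The median over all genes was not computed for this second ratio. With 1 mouse per strain, differences between strains and between mice cannot be told apart for a single strain, and the 2 tables were normalised separately.

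For Mmp12 the strains ran from 1.08 CPM in NOD/ShiLtJ through a median of 7.35 to 49.5 CPM in BALB/cJ. Itgax ran from 0.176 CPM in BXD74/RwwJ, from 2 counts, through 2.01 to 8.12 CPM in BXA11/PgnJ. Cd63 ran from 2.18 CPM in BXD13/TyJ through 17 to 78 CPM in KK/HlJ. Cd68 kept a narrower range, from 6.20 CPM in SWR/J through 15.1 to 38.4 CPM in KK/HlJ. Lgals3 ran from 3.76 CPM in BXD70/RwwJ through 10.5 to 37.4 CPM, again in KK/HlJ.

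Trem2 ran from 0.532 CPM in NZW/LacJ through 1.91 to 4.35 CPM in BXA11/PgnJ. Cd9 ran from 8.92 CPM in BALB/cByJ through 20.9 to 88.1 CPM in NZB/BlNJ. Spp1 ran from 8.35 CPM in FVB/NJ through 25.4 to 103 CPM in KK/HlJ, and Fabp5 from 7.05 CPM in BXD48/RwwJ through 29.4 to 208 CPM in BXD85/RwwJ. The uncertain split of reads between Fabp5 and Gm6166 applies to its strain values too. For Trem2 the ratio of unscaled CPM to TPM spanned 0.979 to 4.97 over the 115 libraries, a 5.08-fold range, and it spanned 7.05-fold for Itgax and 4.25-fold for Mmp12, whereas for Cd68 it spanned 1.51-fold. Strain ranks of Trem2, Itgax and Mmp12 by CPM need not be ranks by TPM, and the relations between genes given below are on the CPM scale.

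A few strains were high in several members at once, and they are named here after their values were seen. KK/HlJ was among the 5 highest strains for 7 of 9 members: first for Cd68, Cd63, Spp1 and Lgals3, ranked 2 for Mmp12 and Itgax, and ranked 4 for Trem2. Its summed Kupffer cell markers ranked 5 of 114, at 938 CPM, its summed stellate cell markers ranked 3, at 328 CPM, and its summed hepatocyte markers ranked 114, the lowest. BXA11/PgnJ was among the 5 highest for 5 members, with Trem2 and Itgax highest of all in CPM, and ranked 27 for Kupffer cell markers, at 724 CPM, and 1 for stellate cell markers, at 362 CPM. On the TPM scale neither was highest in BXA11/PgnJ: the AXB/BXA strains reached at most 2.66 TPM of Trem2 and 2.50 TPM of Itgax, and the other inbred strains up to 4.35 and 3.61 TPM. The part of cell makeup in these strains was not tested.

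BALB/cJ and BALB/cByJ, closely related substrains, differed in most members. BALB/cJ had 54.8 CPM of Cd9, 35.3 of Cd63, 49.5 of Mmp12, 48.7 of Spp1 and 47.9 of Fabp5. BALB/cByJ had 8.92, 10.8, 20.1, 22.7 and 7.10 CPM of the same genes, the lowest Cd9 of all strains. Summed Kupffer cell markers were near each other, at 389 and 407.6 CPM. With 1 mouse each, no test of this difference was possible.

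Between the 2 large families of recombinant inbred strains, which share the parent C57BL/6J, only Spp1 was called. It had a median of 18.5 CPM (from 8.93 to 54.5) over 56 BXD strains and 31.1 CPM (from 22 to 61.2) over 20 AXB/BXA strains. The ranges overlapped, but the lowest AXB/BXA strain lay above the BXD median. The log2 change was -0.54 (SE 0.154, edgeR adjusted p = 0.0115), lower in BXD, and it was called in all 7 alternatives. This is 1 of 9 members, beside 11.6% of 13794 genes called and 5.02% called lower. Cd9 was 0.41 higher in BXD (SE 0.152, edgeR adjusted p = 0.0645), Cd63 0.61 higher (SE 0.259, edgeR adjusted p = 0.115) and Fabp5 0.67 higher (SE 0.284, edgeR adjusted p = 0.115), all uncalled. The median of summed cholangiocyte markers was 11.3 CPM among BXD strains and 9.12 CPM among AXB/BXA strains. Of 6 cholangiocyte genes tested 1 was called, higher in BXD, and the list median was -0.09 on the log2 scale. Their part in the Spp1 difference was not tested.

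**Figure D4:**
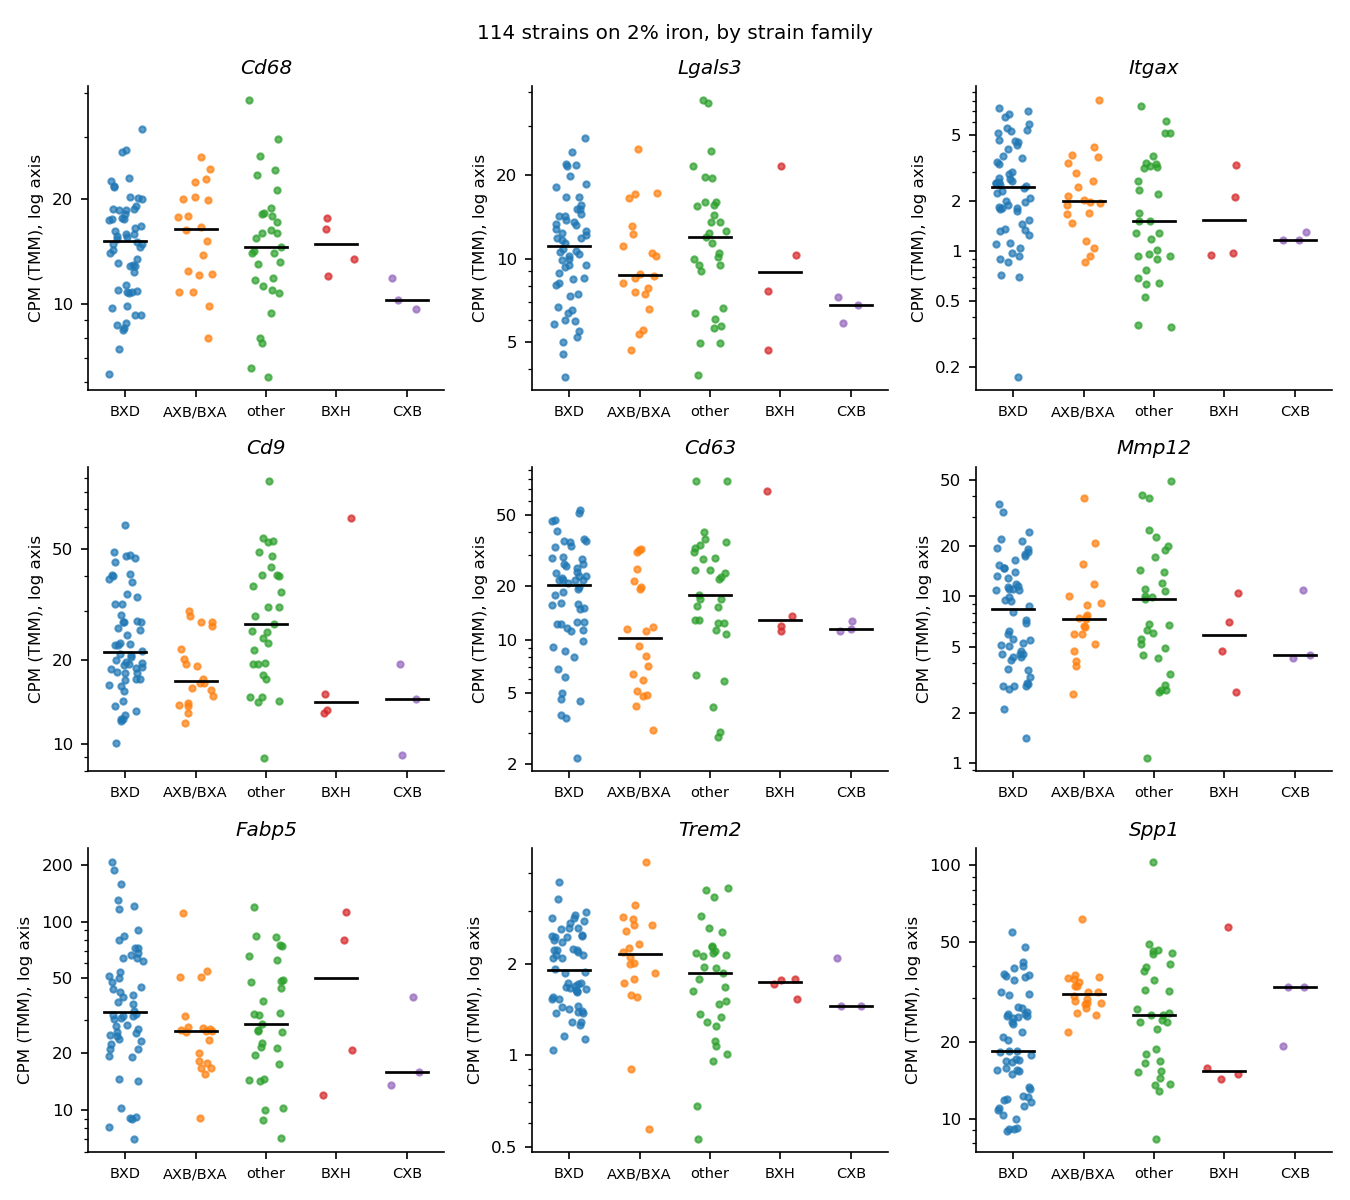
CPM of the members (vertical log axes) in 114 strains on 2% iron, grouped by family: 56 BXD, 20 AXB/BXA, 31 other inbred, 4 BXH and 3 CXB strains. Points are strains and bars are medians. For Spp1 the BXD median lies below the AXB/BXA median, with overlapping ranges.

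Over the 114 strains most members rose and fell together, but not all. Pearson's r was called for 22 of the 36 pairs, all positive, and Spearman's rho for 20, from 100000 permutations with Benjamini-Hochberg adjustment over the pairs. The share of all gene pairs that would be called was not computed, here or for the partner genes below. These counts therefore do not set the members apart from other genes. The median r of a member with 12899 other genes lay between -0.03 (Cd68) and 0.01 (Fabp5). All strains were on 1 diet, and no gene's strains fell into separate clusters. Within families, r was called for 18 of 36 pairs in BXD, 20 in AXB/BXA and 17 in the other inbred strains.

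Cd68 and Lgals3 were the closest pair, with r = 0.823 and rho = 0.830 (adjusted permutation p = 2.57e-05 for each, the smallest possible here). Within families r was 0.840 in BXD, 0.797 in AXB/BXA and 0.865 in other inbred strains, and without KK/HlJ and SWR/J it was 0.803. Cd63 and Lgals3 had r = 0.709 and rho = 0.701 (adjusted permutation p = 2.57e-05 for each), with 0.599, 0.701 and 0.852 within the families. Without BXD13/TyJ and CBA/J r was 0.70. Mmp12 and Itgax had r = 0.703 and rho = 0.689 (adjusted permutation p = 2.57e-05 for each), with 0.743, 0.606 and 0.803 within the families, and 0.679 without BALB/cJ and NOD/ShiLtJ.

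Trem2 was tied most closely to Mmp12 (r = 0.526, rho = 0.524) and Itgax (r = 0.523, rho = 0.537), each at an adjusted permutation p of 2.57e-05. For Mmp12 r was 0.615, 0.685 and 0.457 within BXD, AXB/BXA and other inbred strains, and 0.575 without BXA26/PgnJ and NZW/LacJ. For Itgax it was 0.509, 0.555 and 0.527, and 0.537 without the same strains. With Cd9, Trem2 had r = -0.05 and rho = -0.09 (adjusted permutation p of 0.701 and 0.436).

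Spp1 and Fabp5 stood mostly outside. Spp1 was called with 3 of the other members by r: Trem2 (r = 0.270, rho = 0.256, adjusted permutation p = 0.0072 and 0.012), Mmp12 (r = 0.264, rho = 0.219, adjusted permutation p = 0.00824 and 0.0366) and Itgax. With Itgax r was 0.208 (adjusted permutation p = 0.0433) and rho 0.188 (adjusted permutation p = 0.0692). Without FVB/NJ and KK/HlJ the r of Spp1 with Itgax was 0.143 and no longer called (adjusted permutation p = 0.194). Without the same strains the r of Spp1 with Mmp12 was 0.211. Within BXD, AXB/BXA and other inbred strains r was 0.167, 0.468 and 0.454 with Mmp12, and 0.0947, 0.489 and 0.468 with Itgax. Within the families r of Spp1 with Trem2 was 0.272, 0.395 and 0.360, none of them called, and without BXA26/PgnJ and NZW/LacJ it was 0.320.

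Fabp5 was called with Itgax alone (r = 0.208, rho = 0.193, adjusted permutation p = 0.0433 and 0.0684). Its r was 0.337 in BXD, -0.16 in AXB/BXA and 0.05 in other inbred strains, and 0.184 (adjusted permutation p = 0.0875) without BXD74/RwwJ and LG/J, about as large but no longer called.

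**Figure D5:**
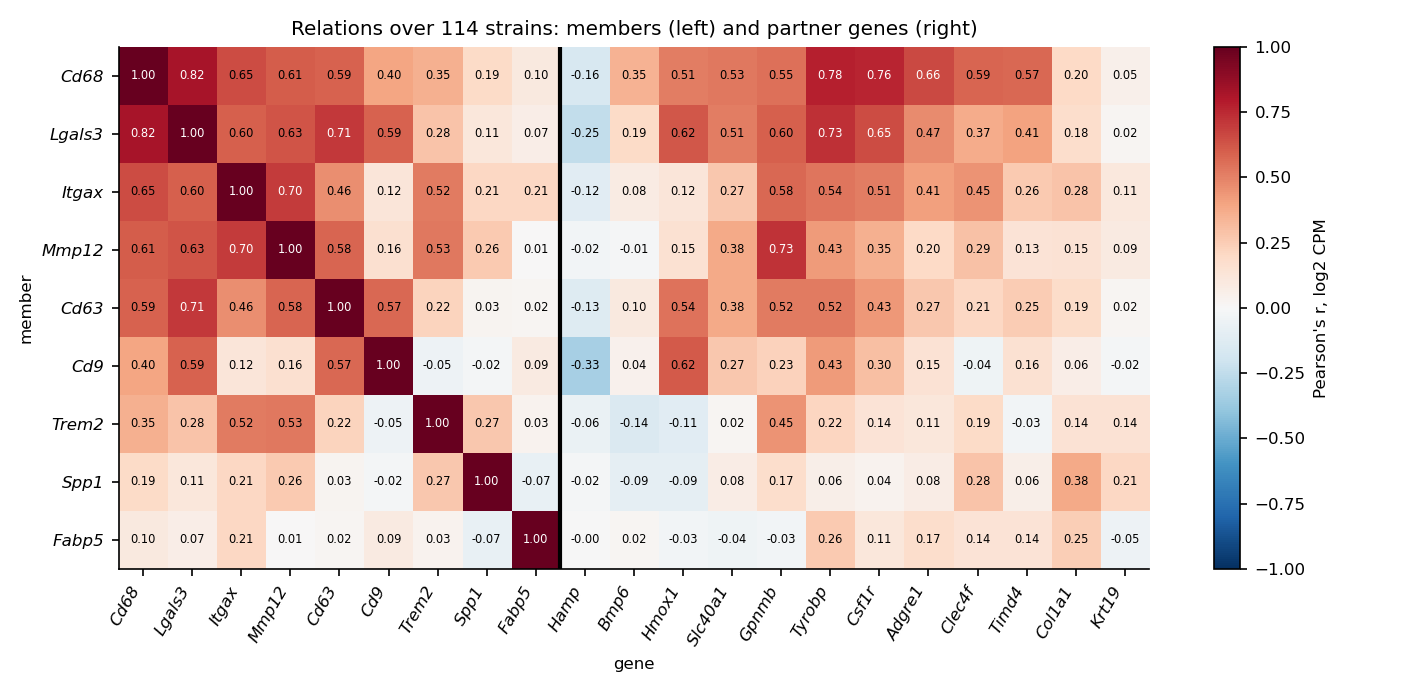
Pearson's r of log2 CPM over 114 strains (colour and printed value) between the 9 members (left block) and with 12 partner genes (right block). Cd68 and Lgals3 at 0.82 form the strongest pair, and the rows of Spp1 and Fabp5 are pale.

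With 12 partner genes, 50 relations of the 9 members were called by r, 48 of them positive, and 53 by rho, with adjustment over all pairs of a member and a partner. Tyrobp had r = 0.778 with Cd68 (rho = 0.757) and 0.727 with Lgals3 (rho = 0.727), but 0.217 with Trem2 (rho = 0.185), whose protein it serves. The adjusted permutation p was 4.00e-05 and 3.60e-05 for the first 2 and 0.0457 and 0.0858 for Trem2. Within BXD, AXB/BXA and other inbred strains r of Tyrobp was 0.804, 0.815 and 0.848 with Cd68, but 0.278, 0.489 and 0.0252 with Trem2, none of the last 3 called. Trem2 had a median of 23 counts per panel library and Cd68 182, and the part of low counts in this contrast was not tested. Gpnmb had r = 0.725 with Mmp12 (rho = 0.723, adjusted permutation p = 4.00e-05 and 3.60e-05). Hmox1, the heme oxygenase, had r = 0.623 with Lgals3 (rho = 0.654) and 0.616 with Cd9 (rho = 0.640), each at an adjusted permutation p of 4.00e-05 for r, whereas with Trem2 r was -0.11 (rho = -0.05, adjusted permutation p = 0.316 and 0.70). The pooled value for Trem2 and Hmox1 did not hold within families: r was 0.103 in BXD, 0.571 in AXB/BXA (adjusted permutation p = 0.0366) and -0.59 in the other inbred strains (adjusted permutation p = 0.00389). Within the same families r of Hmox1 was 0.720, 0.752 and 0.408 with Lgals3 and 0.607, 0.455 and 0.511 with Cd9, and r of Gpnmb with Mmp12 was 0.691, 0.827 and 0.777. Without the 2 farthest strains these r values were 0.756 and 0.719 for Tyrobp with Cd68 and Lgals3, 0.713 for Gpnmb with Mmp12, and 0.620 and 0.592 for Hmox1 with Lgals3 and Cd9.

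The called relations with a negative sign were those of Hamp, the hepatocyte gene of the iron hormone hepcidin, with Cd9 (r = -0.33, rho = -0.31, adjusted permutation p = 0.00102 and 0.00246) and Lgals3 (r = -0.25, rho = -0.23, adjusted permutation p = 0.0176 and 0.0333). Without BXH2/TyJ and NZB/BlNJ the first was -0.24 (adjusted permutation p = 0.0217). Without BTBR T<+> tf/J and KK/HlJ the second was -0.19 (adjusted permutation p = 0.0911) and no longer called. Within BXD, AXB/BXA and other inbred strains r was -0.14, -0.60 and -0.38 for Cd9 and 0.109, -0.57 and -0.46 for Lgals3, so the negative sign of the latter was not found in BXD. Krt19, a bile duct marker, had r = 0.209 with Spp1 (rho = 0.283, adjusted permutation p = 0.055 and 0.00646). Col1a1, a collagen gene, had r = 0.377 with Spp1 (rho = 0.353, adjusted permutation p = 2.09e-04 and 3.70e-04), and 0.342 without FVB/NJ and KK/HlJ. Within the families r was 0.236, 0.275 and 0.0998 for Krt19 and 0.423, 0.600 and 0.356 for Col1a1.

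Among 12899 other genes averaging 1 CPM or more, those most like each member over the 114 strains are given as a description. Most like Cd68 were Nckap1l (r = 0.833), an actin regulator of white blood cells, Cyba (0.826), a subunit of the phagocyte oxidase, and Slc7a8 (0.817), an amino acid transporter. Most like Trem2 were Clec7a (0.508), a receptor for fungal glucans, Amz1 (0.495) and Hpgds (0.483), a prostaglandin synthase. Clec7a also headed the lists of Mmp12 (0.746) and Itgax (0.796). Most like Spp1 were Scara3 (0.571), Pkd2 (0.480) and Tspan8 (0.466), the last a marker on the cholangiocyte list. Pkd2 lies beside Spp1 on chromosome 5, from 104453982 to 104505819, with 12929 bases between them in the RefSeq annotation. The share of genes with r above 0.5 was 5.54% for Lgals3 and 4.40% for Cd68, but 0.00775%, a single gene, for Trem2 and for Spp1. Trem2 rests on 6 to 68 counts per panel library, with a median of 23, while the median was 182 for Cd68 and 296 for Spp1. Itgax, with a median of 26 counts, had a share of 0.574%. The part of low counts in the weak relations of Trem2 was not tested.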

How the data were processed

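The members and the gene lists were chosen with earlier results of these data known. The authors deposited expected counts per gene, which are estimated counts with no normalization, and TPM, which is scaled by transcript length, in a table for each study. Kallisto 0.46 and the mm10 build are named without roles in the submitters' processing notes, and total RNA and a stranded mRNA kit per the labels. The annotation of the diet table is not given in the sources used here, and the panel table's name points to Ensembl release 97. Whether mice of a group were separate litters or cages is not stated, and the p-values take each mouse as independent.

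Counts were rounded and tested with the quasi-likelihood test of edgeR 4.0.16 (TMM, filterByExpr, Benjamini-Hochberg adjustment) in R 4.3.3, with the 5 diet groups in 1 fit and the BXD and AXB/BXA strains in another. The test was checked on simulated counts. The SE is the log2 change divided by the square root of F. The 115 panel libraries were reduced to 114 strains by averaging 129X1/SvJ, and correlations used log2 CPM with a prior count of 2 and two-sided permutation tests with 100000 resamples. As alternatives, normalization used RLE factors, filtering was dropped or required 10 counts in each library, the compared groups were fitted alone, and DESeq2 1.42.0, limma 3.58.1 on log2(TPM + 1) and log2(TPM + 0.1) replaced edgeR; each mouse was left out in turn, and relations were recomputed with other prior counts, centred families and averaged substrains. The text names every member, up to 3 called genes of each role list with the largest change plus Gpnmb and Tyrobp, the 3 genes most like Trem2, Cd68 and Spp1, and each member's highest and lowest strain. Any further gene or strain was picked with its values in view. Symbols and coordinates are from GENCODE M21, which matched 34845 of 35274 and 35612 of 35711 identifiers. Transcripts were compared with BLAST. Separate clusters of strains were sought with Gaussian mixtures (Ashman D above 3, BIC gain above 10, 3 or more strains per component).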

Additional observations from a re-analysis of the deposited data

Results flagged for a closer look

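In the family of 4 BXH strains, 1 strain lay far from the other 3 in 3 of the 9 members. Cd9 was 64.57 CPM in BXH2/TyJ, against 12.91, 13.27 and 15.11 CPM in the others, and Cd63 was 68.81 CPM in BXH2/TyJ, against 11.26, 12.01 and 13.64 CPM. Spp1 was 57.28 CPM in BXH10/TyJ, against 14.34, 15.04 and 15.91 CPM. The gap to the nearest strain took up 0.957, 0.959 and 0.963 of the whole range, above the 95% critical value of Dixon's test for 4 samples. Chance flags about 1 in 20 such groups, and 9 were tested. In BXH2/TyJ, summed monocyte markers were the highest of the 114 strains, at 65.5 CPM, summed neutrophil markers ranked 2, at 147 CPM, and summed Kupffer cell markers ranked 113, at 316.3 CPM, with Clec4f the lowest of all at 32.8 CPM. The part of these cells in its Cd9 and Cd63 levels was not tested.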

How the results depend on the processing

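No paired analysis was possible because the labels give the groups no shared replicate numbers. Of 873 refits of a member's log2 change, 45 changed its sign, none of them for a member called with all mice. Trem2 on 2% iron against chow was 0.79 by limma on log2(TPM + 1), 1.37 on log2(TPM + 0.1) and between -0.18 and 0.0459 with 1 mouse left out. Cd63 on 2% iron against 500 ppm was 0.39 and 0.47 by limma and between -0.74 and 1.48 with 1 mouse left out. The causes were not tested. Limma on TPM called 5 members for 2% iron against 50 ppm with either pseudocount. Cd9 was the 1 member called for chow against 50 ppm with no filter, with at least 10 counts in every library and by DESeq2. Mmp12 was the 1 member called between the 2% diets with RLE factors, with no filter, with at least 10 counts, with the 2 groups alone, by DESeq2 and by limma on log2(TPM + 1). With substrains summed, 2 members (Spp1 and Fabp5) were called between BXD and AXB/BXA. With 1 mouse left out, members called ran from 1 to 3 for 2% iron against 50 ppm, 2 to 5 against 500 ppm, 0 to 1 for chow against 50 ppm and 0 to 1 between the 2% diets.

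Over all genes, limma on log2(TPM + 1) and log2(TPM + 0.1) called 1208 and 1161 for 2% iron against 50 ppm, 910 and 862 against 500 ppm, 1945 and 1987 against chow, 21 and 14 for chow against 50 ppm, 18 and 18 between the 2% diets, and 2657 and 2546 for cellulose against 50 ppm, and the first called 906 between BXD and AXB/BXA. The compared groups alone gave 924 for 2% iron against 500 ppm, 26 for chow against 50 ppm and 23 between the 2% diets. DESeq2 gave 144 for chow against 50 ppm and 222 between the 2% diets, where no filter gave 51 and at least 10 counts 26. With 1 mouse left out, the counts ran from 1003 to 1640 for 2% iron against 50 ppm, 788 to 2204 against 500 ppm, 4 to 62 for chow against 50 ppm and 0 to 212 between the 2% diets. Both counts of called relations stayed within 1.5 times under their alternatives. Trem2 and Itgax rest on few counts, at most 77 and 39 in any diet library.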

Other observations

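The panel included 1 C57BL/6J mouse on the 2% diet, the strain of the diet study. It had 9.91 CPM of Mmp12, 23.7 of Cd63, 29.7 of Cd68, 15.5 of Lgals3, 2.19 of Itgax and 19.3 of Cd9. In the diet study the C57BL/6J mice on 2% iron had 2.82 to 3.82 CPM of Mmp12 and 4.98 to 10.8 of Cd63, and those on 2% iron with cellulose 9.42 to 12.5 and 20.7 to 27.4 CPM. The tables were normalised separately, the labels of the panel name no fibre, and with 1 mouse no comparison was made. Its Cd68 ranked 3 of 114 strains and its Fabp5, at 120 CPM, ranked 6.

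The 5 genes most like Fabp5 over the 114 strains were Pdzk1ip1 (Pearson's r = 0.653), Chrna4 (0.627), Fasn (0.591), the fatty acid synthase, Rdh11 (0.579), a retinol dehydrogenase, and Slc25a1 (0.561), the mitochondrial citrate carrier. None of them was among the 5 most like another member.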
